A study of Mus musculus with 10 samples.

Results

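The RFX genes Rfx1, Rfx2, Rfx3, Rfx5, Rfx6 and Rfx7 were followed in uterine RNA of mice with an epithelial deletion of Arid1a. They are 6 of the 45706 genes in the count table, and all 6 were among the 25146 genes tested, which required a mean count of 1 or more over the libraries. Rfx6 was chosen by its counts, for a rise from near zero in these same libraries, so its difference between genotypes is described here and not tested. The other 5 were chosen as family members. Whole uteri were collected from intact adult females on gestation day (GD) 3.5, 5 of the control genotype Arid1a f/f and 5 of the genotype Ltf iCre/+ Arid1a f/f. Both genotypes carry the floxed Arid1a alleles on a mixed strain background. Only the Ltf iCre/+ Arid1a f/f mice, called mutant from here on, carry Cre, which is expressed from the lactoferrin locus in the epithelium of the mature uterus. Stromal fibroblasts and muscle in the same RNA thus keep Arid1a. The paper adds that this Cre is reportedly also active in neutrophils and further myeloid cells. It could not exclude that a loss of Arid1a in such cells contributed. In RNA from a whole uterus, fewer cells that express a gene and less of its RNA per cell cannot be told apart.

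RFX proteins share a winged-helix DNA-binding domain and recognise the X-box, a pair of inverted half-sites in promoters and enhancers. Rfx2 and Rfx3 are known for switching on genes of motile and primary cilia, and Rfx1 binds overlapping sites in many tissues. Rfx5 forms a complex with Rfxank and Rfxap on MHC class II promoters, where it recruits the coactivator Ciita. Rfx6 acts downstream of Neurog3 in the pancreas and gut, where it is needed for endocrine cells, and Rfx7 is a broadly expressed regulator linked to p53 and to growth control in lymphocytes.

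Libraries held 65351817 to 72702411 counts in controls and 59296537 to 67990486 counts in mutant mice. Expression is given as CPM, counts scaled by TMM to a common library size, and 3 counts were worth 0.0433 CPM in an average control. Arid1a itself stood at 251, 210, 213, 192 and 197 CPM in controls 1 to 5 and at 208, 191, 179, 182 and 165 CPM in mutant uteri 1 to 5, a log2 fold change of -0.20 (adjusted p = 0.201). Adjusted p values here and below come from the quasi-likelihood test of edgeR, adjusted by Benjamini-Hochberg over all genes tested. Epcam, an epithelial adhesion protein, ranged from 73.5 to 102 CPM in controls and was 330, 122, 104, 137 and 322 CPM in the mutant uteri, so that replicates 1 and 5 held the most. Replicate 5 also stood apart for Ltf, an estrogen-responsive secreted protein, with 2830 CPM against 383, 23.6, 39.8 and 290 CPM in replicates 1 to 4.

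Promoters of the family are shown first because 4 of the 6 RFX genes here carry an RFX half-site themselves. The letters GTTGCC, one arm of the X-box, were searched on both strands in RefSeq promoters of build GRCm38.p6, from 250 bases before to 50 bases after each annotated start. The search was made after the promoters had been read and is a description only, and no other motif was searched. In the stretches of 30 bases below, written 5′ to 3′ on the strand of the gene, capitals mark the half-site or its reverse complement.
Rfx1: tgggtagcaacaGTTGCCccggtgagggaa
Rfx2: agcttggtaaccGTTGCCgggcgcaacgcc
Rfx3: gttatagcaaccGTTGCCttgtgaatcaag
Rfx6: ttggtgacttctGGCAACttatttgataat
The stretch of Rfx1 lies at chr8:84066825-84066854 on the plus strand, with the half-site 1 base after the start. That of Rfx2 lies at chr17:56831107-56831136 on the minus strand, with the site at position -116 from the start. The Rfx3 stretch is at chr19:28011118-28011147 on the minus strand, with the site 31 bases after the start, and the Rfx6 stretch is at chr10:51685523-51685552 on the plus strand, with the site 17 bases after the start. The Rfx6 start in RefSeq is not the first base of the longer GENCODE M21 gene model, which begins at 51677756. The promoters of Rfx5 and Rfx7 held no such letters in these windows. Over all 32851 promoters the share with a match was 12.5%, and it was 50.0% of 26 promoters of primary cilium transport genes, 42.1% of 19 promoters of motile cilium axoneme genes, 36.4% of 11 promoters of motile ciliogenesis regulators and 22.2% of 9 promoters of MHC class II genes. None of 3 promoters of the remaining RFX family genes and none of 10 promoters of the RFX5 complex and its partners held a match. The share was 8.33% of 12 promoters of endocrine factors, 6.90% of 29 promoters of islet and enteroendocrine products, 18.2% of 11 promoters of foregut and gut factors and 12.5% of 16 promoters of RFX7-linked genes.

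Rfx6 (ENSMUSG00000019900, chromosome 10 of GRCm38, 51677756 to 51730432, plus strand) was almost absent from control uteri and present in 4 of the 5 mutant uteri at several CPM or more. Its raw counts in controls 1 to 5 were 0, 0, 1, 0 and 3. In mutant uteri 1 to 5 they were 326, 182, 1045, 1248 and 7. Replicates 3 and 4 held the most and replicate 5, the uterus with the highest Ltf, held the least, yet its 7 counts were still above the highest control. In CPM the mutant values were 5.11, 3.08, 17.1, 18.1 and 0.101. Controls averaged 0.0117 ± 0.0188 CPM and mutant uteri 8.70 ± 8.33 CPM (SD, n = 5 each), so the spread among the latter was about as large as their mean. The genotypes did not overlap, which was also true of 10.7% of all genes tested and which the choice of Rfx6 for this rise made likely.

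Scaled by library size, the summed Rfx6 counts were 757 times those of controls (2808 against 4 counts, 95% exact interval 295 to 2780, for counting error only). Control 5 held 3 of the 4 control counts, and without it the ratio was 2420 (95% exact interval 434 to 95600), so its size rests on that library. The 7 counts of replicate 5 alone were 8.79 times the control level (95% exact interval 2.23 to 40.9, likewise for counting error). Because Rfx6 was chosen for its rise, these intervals test nothing, and they leave out the spread between uteri. The fitted log2 fold change of 9.34 depends on the small count added in the fit, because most controls were at 0. No annotated gene model overlaps Rfx6 in GENCODE M21, so its counts had no partner on the opposite strand. Over the mutant uteri Epcam, an epithelial adhesion molecule, was highest in replicates 1 and 5, where Rfx6 was 5.11 and 0.101 CPM. The part of epithelial content in the Rfx6 values was not tested.

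**Figure D1:**
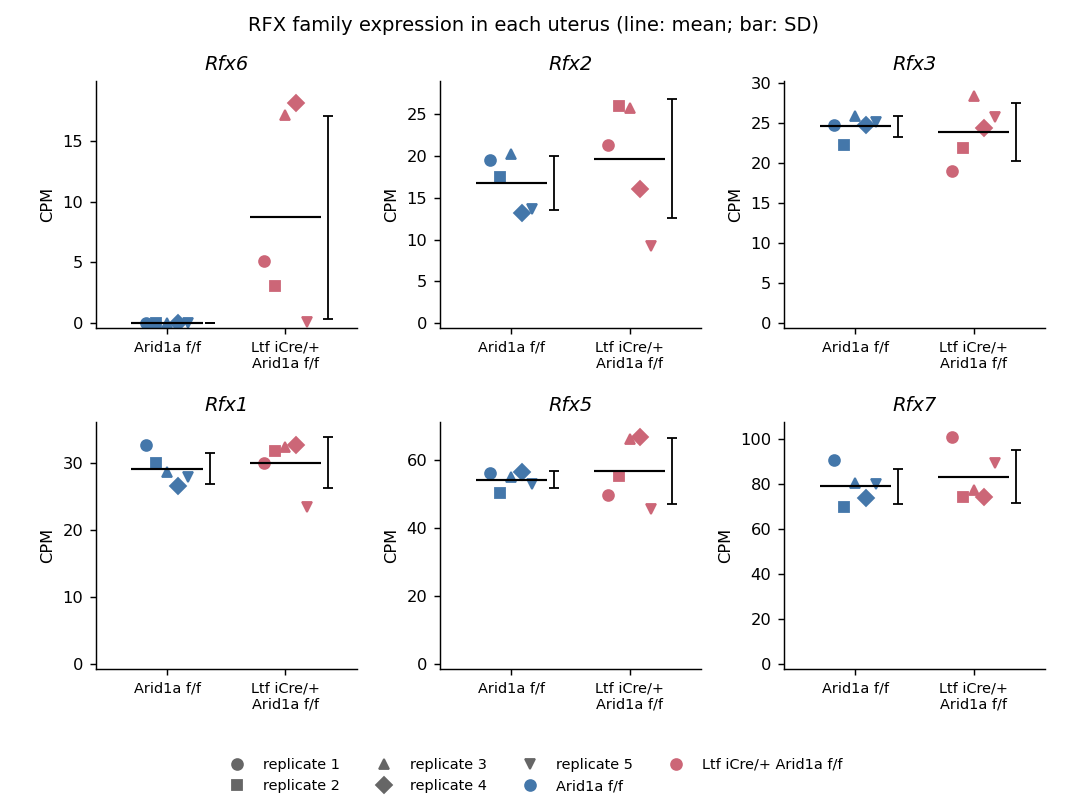
Each panel plots the CPM of 1 RFX gene (linear axis from 0) in 5 Arid1a f/f and 5 mutant uteri, with a symbol for each replicate, a line at the mean and a bar for the SD. Rfx6 is near 0 in controls and reaches 18.1 CPM in mutant replicate 4, while the points of the other 5 genes overlap between genotypes.

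None of the other 5 RFX genes passed the threshold (adjusted p under 0.05), which 9.7% of all tested genes passed. As many, 0 of 5, had an unadjusted p under 0.05, and DESeq2 also called 0 of them. The genotypes overlapped for each of the 5. The 95% intervals of the fold changes, given with each gene, were widest for Rfx2.

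Rfx2 (ENSMUSG00000024206, chromosome 17, 56775897 to 56831013, minus strand), a regulator of cilium genes, varied most of the 5 relative to its mean. In controls it had 19.5, 17.5, 20.2, 13.2 and 13.7 CPM. Among mutant uteri it had 21.3, 26.0, 25.7, 16.1 and 9.19 CPM. Replicates 1 to 3 were above every control and replicate 5 was below every control, so the SD was 3.24 CPM in controls and 7.09 CPM in mutant uteri (n = 5 each), with no shift larger than that spread. The log2 fold change was 0.22 (standard error 0.25, 95% interval -0.33 to 0.78, edgeR adjusted p = 0.637, two-sided permutation, exact p = 0.643). Without mutant replicate 5 the log2 fold change was 0.41 (adjusted p = 0.178).

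Rfx3 (ENSMUSG00000040929, chromosome 19, 27761721 to 28011166, minus strand), which also acts on cilium genes and in islet cells, was at 24.8, 22.3, 25.9, 24.8 and 25.1 CPM in controls. The mutant uteri had 19.0, 21.9, 28.4, 24.4 and 25.8 CPM, with replicates 1 and 2 below and replicate 3 above every control. The log2 fold change was -0.04 (standard error 0.11, 95% interval -0.28 to 0.20, edgeR adjusted p = 0.858, exact permutation p = 0.611). Its sign rested on replicate 1, without which the log2 fold change was 0.03.

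Rfx1 (ENSMUSG00000031706, chromosome 8, 84066834 to 84096992, plus strand), a broadly expressed member that can act as an activator or a repressor, had 32.7, 30, 28.7, 26.6 and 28 CPM in controls. In mutant uteri it had 30.1, 31.9, 32.4, 32.7 and 23.5 CPM. The first 4 of these lay within the control range and replicate 5 lay below it. The log2 fold change was 0.04 (standard error 0.11, 95% interval -0.19 to 0.28, edgeR adjusted p = 0.839, exact permutation p = 0.730). The antisense gene C330011M18Rik overlaps Rfx1 and was counted with 8.28% as many reads, and the sources used here do not give a strand setting for the counts, so some reads may belong to the partner. Models that overlap Rfx3, Rfx5 or Rfx7 each held at most 0.671% as many reads as the RFX gene.

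Rfx5 (ENSMUSG00000005774, chromosome 3, 94954075 to 94961561, plus strand), the DNA-binding subunit of the MHC class II regulator, had 56.2, 50.5, 55.2, 56.5 and 53.0 CPM in controls. The mutant uteri had 49.8, 55.5, 66.4, 66.9 and 45.6 CPM. Replicates 3 and 4, which were also the highest for Rfx6, exceeded every control, and replicates 1 and 5 fell short of every control. Its log2 fold change was 0.07 (standard error 0.11, 95% interval -0.17 to 0.31, edgeR adjusted p = 0.759, exact permutation p = 0.651).

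Rfx7 (ENSMUSG00000037674, chromosome 9, 72532240 to 72622937, plus strand) had 90.6, 70.0, 80.5, 73.8 and 79.9 CPM in controls and 101, 74.1, 77.4, 74.3 and 89.3 CPM in mutant uteri. Replicate 1 alone was above the controls. The log2 fold change was 0.08 (standard error 0.11, 95% interval -0.16 to 0.31, edgeR adjusted p = 0.711, exact permutation p = 0.524), and it was -0.01 without replicate 1. Seen across the family, replicate 5 held the lowest value of all 10 libraries for Rfx1, Rfx2 and Rfx5.

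Of the family genes outside these 6, Rfx4, a factor of the developing brain, had 0 counts in all 10 libraries. Rfx8 was close to the detection limit, at 0.132 ± 0.0441 CPM in controls and 0.187 ± 0.0696 CPM in mutant mice (SD, n = 5 each). On the log2 scale it differed by 0.50 (standard error 0.39) and missed the threshold (edgeR adjusted p = 0.472).

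Levels were compared between genes as CPM per kb of annotated exons. In controls Rfx5 was highest at 9.87 ± 0.461, followed by Rfx7 at 5.16 ± 0.512 and Rfx1 at 4.54 ± 0.362 CPM per kb (SD, n = 5 each). Rfx2 followed at 2.30 ± 0.444 and Rfx3 at 2.23 ± 0.122, then Rfx8 at 0.0617 ± 0.0206 and Rfx6 at 0.00293 ± 0.00468 CPM per kb. The ranges of Rfx7 and Rfx1 overlapped, as did those of Rfx2 and Rfx3, so neither pair was ordered beyond its spread on this scale. Per kb of the longest transcript those pairs were apart in controls (9.88 for Rfx7 against 7.00 for Rfx1, and 4.06 for Rfx2 against 2.69 for Rfx3), while the ranges of Rfx5 (12.2) and Rfx7 overlapped, so which neighbours differ depends on the length used. In mutant uteri Rfx5, Rfx7, Rfx1 and Rfx2 kept this order at 10.3, 5.44, 4.68 and 2.69 CPM per kb. There Rfx6 reached the mean level of Rfx3, at 2.17 CPM per kb for both, but from 0.0253 to 4.52 for Rfx6 over the 5 uteri and with an SD of 2.08 against 0.324 for Rfx3 (2.51 and 2.61 per kb of the longest transcript, also overlapping).

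The neighbourhood of Rfx6 was examined because it was not part of the choice of genes. Within 500 kb on either side, 4 genes other than Rfx6 were tested, and Gprc6a and Ros1 passed the threshold, both upward, a direction in which 5.19% of all tested genes passed. Of the 26 annotated neighbours, 11 were in the count table, and the others have no counts here. Among the 11, those not tested were below the count minimum. Gprc6a had no control count and reached that minimum only through mutant libraries. Nothing is therefore read from its being among the 4, from its passing or from the share that passed. Gprc6a, an amino acid-sensing receptor, lies on the minus strand 46.3 kb before Rfx6 (ENSMUSG00000019905, 51614823 to 51631461). It had 0 counts in every control and 29, 19, 38, 62 and 0 counts in mutant uteri 1 to 5. Replicate 5, lowest for Rfx6, had no Gprc6a count and replicate 4 had the most of both. In CPM the mutant mean was at least 10.6-fold higher than the floor of 3 counts per control library (0 in controls and 0.460 ± 0.336 CPM in mutant uteri, SD, n = 5 each). Without control replicate 2 Gprc6a did not pass.

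Ros1, a receptor tyrosine kinase on the minus strand 315.3 kb beyond Rfx6 (ENSMUSG00000019893, 52045721 to 52195244), had 0, 0.0836, 0.0783, 0.0142 and 0.0718 CPM in controls. It had 3.42, 0.439, 0.556, 0.784 and 1.04 CPM in mutant uteri. The genotypes did not overlap, but the order differed from that of Rfx6, with the most Ros1 in replicate 1 and the next most in replicate 5. The log2 fold change of Ros1 was 4.61 (standard error 0.79, edgeR adjusted p = 0.00601, exact permutation p = 0.00794, the lowest this design allows). The protein-coding model Gm49339 ends 181.1 kb before Rfx6, at the same distance as Lilrb4a, which is not in the count table. Some Gm49339 reads may therefore be those of Lilrb4a. Gm49339 had 13.7 ± 16.2 CPM in mutant and 4.51 ± 1.25 CPM in control uteri (SD, n = 5 each), with 42.6 CPM in replicate 5 (edgeR adjusted p = 0.105, and 0.0204 with DESeq2). Without that uterus its log2 fold change was 0.53. Fam162b had at most 4 counts in any library. Vgll2, which lies between Rfx6 and Ros1, had no count in any library.

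**Figure D2:**
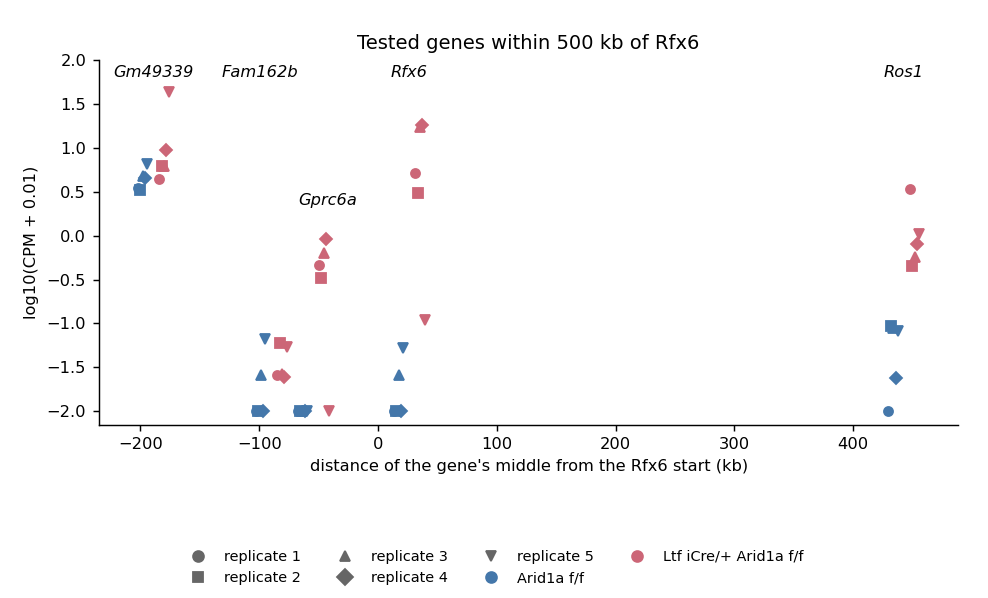
The tested genes within 500 kb of Rfx6 are placed by the distance of their middle from the Rfx6 start (kb), with log10(CPM + 0.01) of each uterus on the y axis and a symbol for each replicate. Gprc6a is at the bottom, 0 counts, in all 5 controls and in mutant replicate 5, and Ros1 is higher in all 5 mutant uteri than in any control.

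Genes whose log2 CPM followed that of Rfx6 most closely over the 10 libraries were ranked by Pearson's r among the 17699 genes with a mean of at least 20 counts. The ranking uses the rise of Rfx6 itself, so the 5 genes below are a description without a test, and their r includes the difference between genotypes, which all 10 points share. Prlhr, the receptor of prolactin-releasing peptide, came first with r = 0.981 and had no count in controls. Its mutant values were 0.502, 1.47, 2.16, 2.69 and 0.0579 CPM, a mean at least 31.8-fold above the floor of 3 counts per control library. Like Rfx6, Prlhr was lowest in replicate 5 and highest in replicate 4.

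Acvr1c, a receptor of activins and Nodal, came next with r = 0.963 (0.136 ± 0.0721 CPM in controls and 1.69 ± 0.883 CPM in mutant mice, SD, n = 5 each). L1cam, a neural adhesion molecule, followed with r = 0.960 and 6.24 ± 0.503 against 10.6 ± 2.92 CPM. The GABA-A receptor subunit Gabre (r = 0.959) had 1.81 ± 0.528 and 8.12 ± 3.57 CPM, and Pak1ip1, a nucleolar protein (r = 0.959), had 64.5 ± 2.71 and 97.6 ± 15.5 CPM. In each of these, replicate 5 was the lowest mutant uterus. Ranked by Spearman's rho instead, 1 of the 5 genes was shared. Gprc6a, which has too few counts to enter the ranking, had r = 0.984 with Rfx6.

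**Figure D3:**
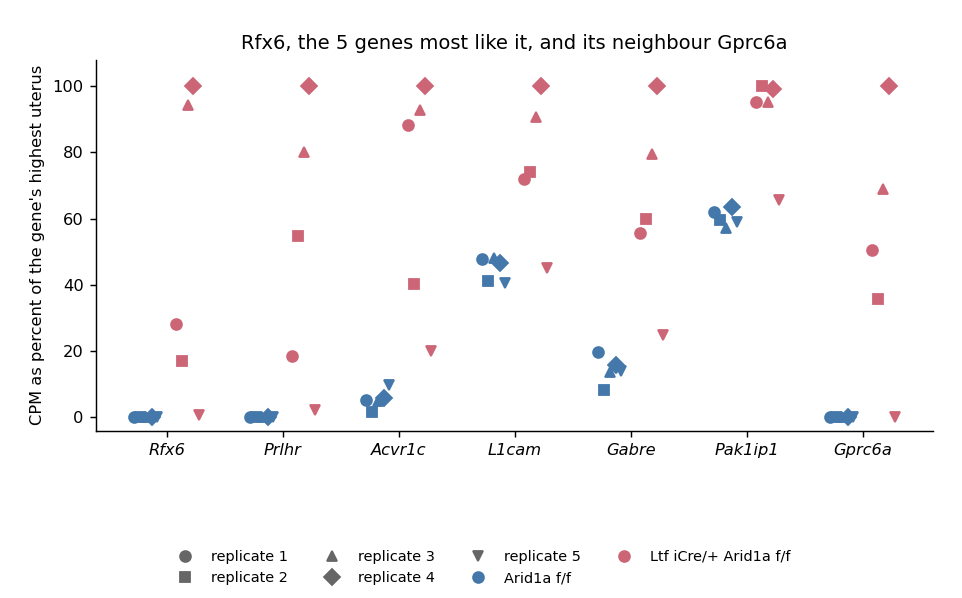
For Rfx6, the 5 genes most like it and Gprc6a, the CPM of each of the 10 uteri is drawn as a percent of the gene's highest uterus (linear axis), with a symbol for each replicate and the genotypes in separate colours. In each of the 7 genes the inverted triangle, replicate 5, is the lowest of the 5 mutant points.

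Partners of Rfx5 were examined next, since it works only in a complex. Rfxank, its ankyrin-repeat partner, had a log2 fold change of -0.07 (adjusted p = 0.679) and Rfxap, the third subunit, of 0.07 (adjusted p = 0.764). Of 9 genes of the complex and its promoter partners, 2 passed the threshold upward, against 5.19% of all tested genes, and 0 downward. Their median log2 fold change was -0.03 against 0.03 over all genes tested. Of these 9, 0 passed without control 2, and 1 passed without control 1, 3 or 4 or without mutant replicate 1, 4 or 5. Creb1, Nfya and Nfyb, which bind beside the complex, had log2 fold changes of -0.10, 0.01 and -0.03 and did not pass.

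Those that passed were the NLR-family coactivators Ciita and Nlrc5, which act on MHC class II and class I promoters. Ciita had 6.76, 5.38, 5.97, 5.99 and 10.3 CPM in controls and 12.4, 9.62, 8.75, 16.9 and 19.4 CPM in mutant uteri. Control 5 lay among the latter, so the genotypes overlapped. For Ciita the log2 fold change was 0.96 (standard error 0.25, edgeR adjusted p = 0.0364). With 1 uterus left out at a time it passed in 3 of 10 fits and missed the threshold without control 1, 2, 3 or 4 or mutant replicate 1, 4 or 5 (adjusted p from 0.0551 to 0.0956). Nlrc5 had 19.7, 16.4, 27.0, 13.9 and 18.9 CPM in controls and 46.6, 26.6, 28.4, 72.2 and 55.3 CPM in mutant uteri, of which replicate 2 was within the control range. On the log2 scale the fold change of Nlrc5 was 1.26 (standard error 0.28), with an edgeR adjusted p = 0.0181 that became 0.0555 when control 2 was left out.

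Among 10 MHC class II genes, the targets of this complex, 7 passed the threshold upward, against 5.19% of all tested genes, and 0 downward, with a median log2 fold change of 0.84. The rise of this list was already known when it was chosen and is no independent support. H2-DMb2, a peptide-loading subunit, rose by 0.97 on the log2 scale (adjusted p = 0.0135) and H2-Ab1, the class II beta chain, by 0.94 (adjusted p = 0.0118). The invariant chain Cd74 (0.93, adjusted p = 0.0230) and H2-DMa (0.91, adjusted p = 0.0250) missed the threshold when any 1 of controls 1 to 4 was left out (adjusted p up to 0.0685), and 3 of the 10 genes passed without control 3 and 4 without control 1, 2 or 4. Of 18 markers of antigen-presenting cells, 0 passed upward and 1 downward, a direction in which 4.51% of all tested genes passed. The gene that passed was the dendritic cell factor Zbtb46, at a log2 fold change of -0.60 (adjusted p = 0.0109). The other dendritic cell markers had positive log2 fold changes that did not pass, at 0.81 for Itgax, 0.90 for Cd209a, 0.65 for Xcr1, 0.52 for Clec9a and 0.37 for Flt3. The median log2 fold change of the 18 was 0.52, and the macrophage markers C1qa, C1qb and Csf1r stood at 0.61, 0.64 and 0.41 without passing. Without mutant replicate 5 these were 0.36, 0.36 and -0.02. Without mutant replicate 2, 4 of the 18 passed in either direction. The summed CPM of these markers ranged from 208 to 356 in controls and from 310 to 676 in mutant uteri, with the top value in replicate 5, and their part in the class II and Ciita values was not tested.

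**Figure D4:**
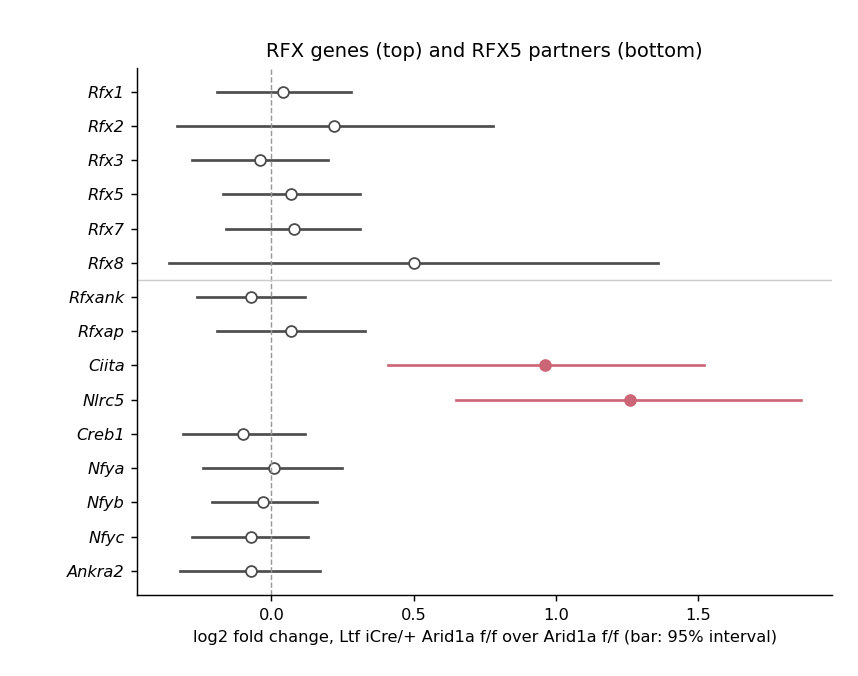
Log2 fold changes (x axis) of 6 RFX genes and 9 partners of RFX5 are shown as points with 95% intervals, filled and coloured where the adjusted p was under 0.05. Rfx6 is left out because it was chosen for its difference, and the filled points, Ciita and Nlrc5, stand at 0.96 and 1.26.

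Regulators of motile ciliogenesis, which act with Rfx2 and Rfx3, had fold changes of both signs. Of 8 tested, 2 passed upward, against 5.19% of all tested genes, and 0 downward, and the median log2 fold change was -0.44. Foxj1, the leading motile cilium factor, was low in all uteri, from 0.454 to 1.04 CPM in controls and from 0.533 to 0.736 CPM in mutant mice, with a log2 fold change of -0.16 (edgeR adjusted p = 0.753). Gmnc had a log2 fold change of -0.68 and did not pass.

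Myb, a factor of multiciliated and of proliferating progenitor cells, had 10.3, 8.01, 5.37, 9.26 and 7.12 CPM in controls and 60.0, 22.4, 13.8, 16.9 and 24.1 CPM in mutant uteri. Every mutant value was above every control, and the log2 fold change was 1.78 (edgeR adjusted p = 0.0138). Mcidas, a switch for multiciliation that was named after its values were seen, had 0 counts in all controls and only 2, 1, 10, 7 and 6 counts in the other uteri. It reached the count minimum only through the latter, so its place among the 2 that passed is a description. With DESeq2, and without controls 2, 3 or 4 or mutant replicate 4, 1 of the list's genes passed.

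Of 22 tested genes of the motile axoneme, 1 passed upward and 1 downward, against 5.19% and 4.51% of all tested genes. The median log2 fold change of the 22 was -0.42. Dnah5, an outer-arm dynein, was lower at 1.41, 6.44, 2.26, 2.28 and 0.810 CPM against 13.3, 7.75, 11.7, 10.2 and 6.72 CPM in controls. Its genotypes did not overlap, and the log2 fold change was -1.91 (edgeR adjusted p = 0.0278). The call held in 3 of the 10 fits with 1 uterus left out and was lost without controls 1, 2, 3 or 4 or mutant replicates 1, 3 or 4 (adjusted p up to 0.0634). Pifo, a cilium protein named after its values were seen, had at most 2 counts in controls and between 2 and 37 in mutant uteri. It reached the count minimum only through the latter, so its place as the 1 that passed upward is a description. Without any 1 of controls 2 to 5 it did not pass. Tppp3, Ccdc39 and Hydin had log2 fold changes of -0.22, -0.66 and 0.05 and did not pass. Without control 2, 3 or 4 in turn, 0 of the axoneme genes passed, and with DESeq2 5 passed.

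Oviduct and ciliated cell markers were read beside these genes. Dnah5, Ccdc39 and Sntn are also on the axoneme list and Foxj1 is on the regulator list, so only Ovgp1 is new here. The counts and sums of this list therefore partly repeat the values above. Of 4 tested, 0 passed upward and 2 downward, a direction in which 4.51% of all tested genes passed. These were Dnah5 and the oviduct secretory protein Ovgp1, the latter with a log2 fold change of -2.21 (edgeR adjusted p = 0.0106). The summed CPM of all 5 markers was 40.9 to 59.2 in controls and 8.35 to 24.0 in mutant uteri, and the ciliated cell marker Sntn had at most 2 counts in any library. Their part in the axoneme values was not tested.

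Transport genes of the primary cilium, where RFX sites are common, were expressed in every uterus. All 31 were tested and 1 passed upward and 4 downward, while 4.51% of all tested genes passed downward, and the median log2 fold change was -0.25. Ift20, a subunit of the anterograde transport complex that also works at the Golgi, had 43.9, 48.7, 46.7, 53.2 and 54.9 CPM in controls. It had 72.4, 67.8, 70.0, 66.6 and 63.5 CPM in mutant uteri, above every control. Its log2 fold change was 0.46 (standard error 0.08, edgeR adjusted p = 0.00603), and it passed in all 10 fits that left out 1 uterus.

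The genes that passed downward were the transport subunits Ift57 (log2 fold change -0.47, adjusted p = 0.0397), Ift140 (-0.36, adjusted p = 0.0424) and Wdr19 (-0.50, adjusted p = 0.0496), and the BBSome subunit Bbs9 (-0.57, adjusted p = 0.0470). Ift140 was named after its values were seen. These calls lay near the threshold and each held in only 1 or 2 of the 10 fits with 1 uterus left out (adjusted p up to 0.108 otherwise). Without any 1 of controls 2 to 5, or without mutant replicate 4 or 5, Ift20 was the 1 gene of the list that passed, and with DESeq2 10 genes passed.

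Endocrine factors that accompany Rfx6 in the pancreas and gut were mostly at or near 0 counts. Of the 15 listed, 6 were tested and 0 passed in either direction, against 9.7% of all tested genes. With so few genes tested, nothing is read from this count. With DESeq2, and without mutant replicate 2, 3 or 5, 1 gene of the list passed. Neurog3, which acts upstream of Rfx6 in islet development, had 1 count in control 2 and in mutant replicate 5 and 0 elsewhere. Pdx1 had 2 counts in control 2 and 0 in the other libraries, and Neurod1 and Pax4 had 0 in all 10. Nkx6-1, an islet beta cell factor, had 0, 0, 0, 1 and 0 counts in controls and 5, 1, 4, 7 and 0 in mutant uteri. It did not pass, and it reached the count minimum only through mutant uteri, so its values are a description. St18 had a log2 fold change of 0.87 and did not pass.

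Hormone genes of islets and enteroendocrine cells were read next. Of 29 listed, 20 were tested, and 0 passed upward and 1 downward, against 5.19% and 4.51% of all tested genes. The median log2 fold change was -0.42. Ins1, Gcg and Pyy had 0 counts in all 10 libraries, Ins2 and Gip had 1 count each over all 10, and the granin Scg3 was lower in mutant uteri. Scg3 had 1.23, 3.11, 2.07, 1.65 and 1.82 CPM in controls and 0.659, 0.524, 0.687, 0.494 and 0.492 CPM in the other uteri, with a log2 fold change of -1.79 (edgeR adjusted p = 0.00324). Cpe, a prohormone-processing enzyme, had a log2 fold change of -0.25 and did not pass. With DESeq2, 4 of these genes passed, and 2 passed without mutant replicate 5.

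Of 12 tested transcription factors of the foregut and gut, 2 passed upward and 1 downward, against 5.19% and 4.51% of all tested genes. Foxa2, which the uterus uses in its glands, fell by 1.13 on the log2 scale, from 13.6, 13.7, 11.2, 13.8 and 10.6 CPM to 4.48, 4.55, 5.87, 8.58 and 5.15 CPM (edgeR adjusted p = 0.00570). Hnf4g rose by 1.34 (adjusted p = 0.0437) but passed in only 2 of the 10 fits with 1 uterus left out (adjusted p up to 0.106 without any control but replicate 2 or any mutant uterus but replicate 2). Foxa3, named after its values were seen, had at most 0.0426 CPM in controls and 0.0726 to 0.275 CPM in mutant uteri (adjusted p = 0.0258, and up to 0.0606 without control 2 or 3). Sox17 and Gata6 had log2 fold changes of -0.22 and -0.26 and did not pass. Without control 3, 1 gene of the list passed.

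Markers of pancreas and intestine were low, and none passed upward, while 5.19% of all tested genes passed upward and 4.51% downward. Of 4 tested acinar genes 0 passed upward and Cpa1, a pancreatic carboxypeptidase, passed downward at a log2 fold change of -4.50 (edgeR adjusted p = 0.0106), while Pnlip had 0.03 and Ctrb1 and Clps had no counts. The 9 acinar markers summed to 0.462 to 1.34 CPM in controls and 0.157 to 0.541 CPM in mutant uteri. Of 6 tested intestinal genes 0 passed upward and Vil1, a microvillus actin-bundling protein, passed downward (-1.16, adjusted p = 0.0495, passing in 1 of the 10 fits with 1 uterus left out, the one without mutant replicate 5, and up to 0.111 otherwise), with Lgals4 and Muc2 at -0.01 and 0.60. The intestinal factors Cdx1 and Cdx2 had at most 1 and 4 counts in any library, and the summed intestinal markers overlapped between genotypes, at 9.06 to 20.8 and 9.91 to 15.9 CPM.

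Rfx7 was read against 14 genes linked to it, growth-restraining targets in other cells. None passed upward and 1 passed downward, against 5.19% and 4.51% of all tested genes, with a median log2 fold change of -0.18. Pik3ip1, an inhibitor of PI3 kinase, had 42.9, 42.9, 32.9, 44.1 and 48.1 CPM in controls and 13.1, 22.5, 30.2, 34.9 and 23.3 CPM in mutant uteri, a log2 fold change of -0.77 (edgeR adjusted p = 0.0484). The call of Pik3ip1 was lost without any 1 control or without mutant replicate 2 or 5 (adjusted p up to 0.106), and 2 genes of the list passed without mutant replicate 3. Pdcd4, Mxd4 and Pnrc1 had log2 fold changes of -0.25, -0.17 and -0.12 and did not pass.

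**Figure D5:**
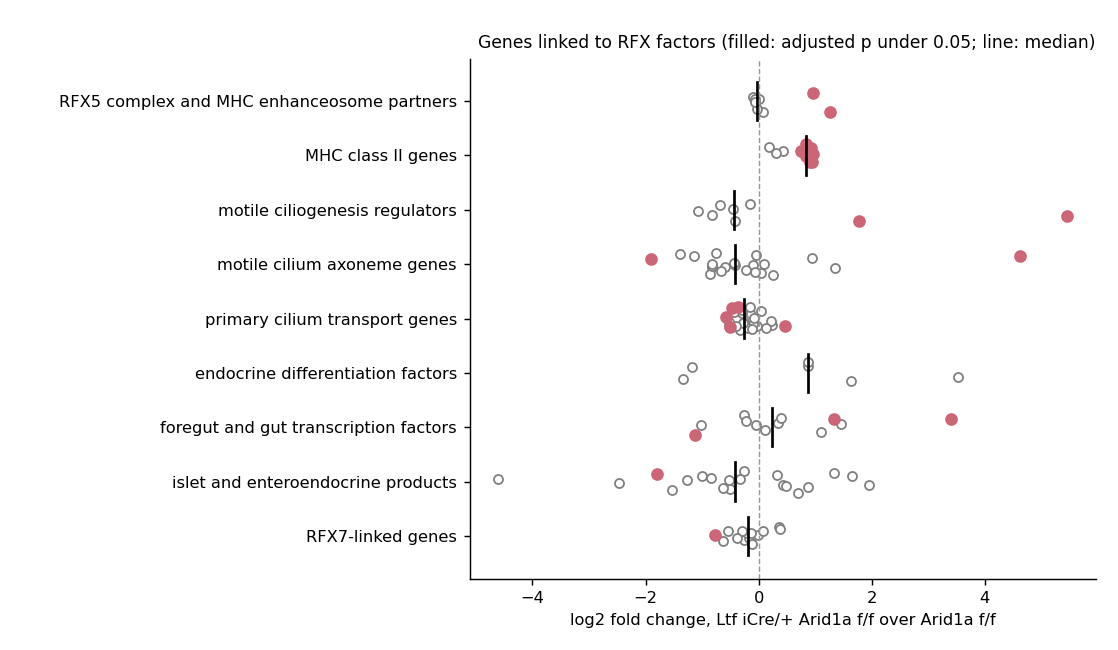
Each row is a list of genes linked to RFX factors and each point the log2 fold change of 1 tested gene, filled where the adjusted p was under 0.05, with a line at the list's median. MHC class II genes stand at a median of 0.84 and the 3 cilium lists at -0.44, -0.42 and -0.25, and the points near 5, Mcidas and Pifo, depend on the count added in the fit because controls were at or near 0.

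Markers of the uterine compartments were read in the same libraries. Among 11 epithelial markers 5 passed upward and 1, Foxa2, downward, against 5.19% and 4.51% of all tested genes. Only 6 of the 11 had a log2 fold change above 0, with a median of 0.27 and a lowest value of -3.57. Their summed CPM was 813 to 1100 in controls and 1130 to 2040 in mutant uteri. Epcam and Cldn7, epithelial surface proteins, rose by 1.19 (adjusted p = 0.0370) and 1.10 (adjusted p = 0.0184) on the log2 scale, and Krt8, Cdh1 and Krt19 by 0.87, 0.82 and 0.77. Epcam passed in 3 of the 10 fits with 1 uterus left out and missed the threshold without any 1 control or without mutant replicate 1 or 5 (adjusted p up to 0.0917). Without control 3, 2 of the epithelial markers passed, and without control 2 or 5, 3 passed. Of 8 stromal markers 0 passed upward and Dcn, a matrix proteoglycan, passed downward (-0.65, adjusted p = 0.0109), while Col1a1 and Col3a1 had 0.33 and -0.26. Only 1 of these 8, Col1a1, had a log2 fold change above 0, and their median was -0.34. None of 6 myometrial markers passed, with Acta2, Myh11 and Tagln at -0.50, -0.78 and -0.44, and 1 passed without mutant replicate 2. The part of these compartments in the values of the RFX genes was not tested.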

How the data were processed

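Whole-uterus mRNA libraries (50 bp, paired end) from GD 3.5 were used, 5 of Arid1a f/f and 5 of mutant mice. Per the submitters' processing notes, the authors trimmed reads with cutadapt 1.18 and Trim Galore 0.6.4, checked them with FastQC 0.11.9, and aligned them to GRCm38 with STAR 2.7.3a, whose gene counting made the table. The deposited values are whole-number counts per Ensembl gene, without normalization or filter. The annotation release and strand setting are not given in the sources used here. Columns were matched to samples by name. No pair of libraries of the same genotype was a duplicate (chi-square of at least 36.1 per gene). Pairs across genotypes were not checked.

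Symbols and positions were taken from GENCODE M21 (45143 of 45706 identifiers found). A gene was tested if its mean count reached 1, with edgeR 4.0.16 in R 4.3.3 (TMM scaling, quasi-likelihood test on genotype alone, Benjamini-Hochberg over every gene tested, threshold 0.05). For a single gene the log2 CPM (prior count 2) was also permuted exactly over all 252 arrangements of the libraries, two-sided (scipy 1.17.1). Uteri are separate animals as far as the labels tell, and p-values measure the spread between them. Intervals of counts are exact at 95% and, like the floor of 3 counts, cover counting error only. Alternatives were RLE size factors, DESeq2 1.42.0 at a threshold of 0.05, no filter, edgeR's own filter, the replicate number as a block, and the omission of each uterus.

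The RFX genes and 17 lists (217 distinct genes, from general knowledge) were chosen with earlier results of these data known. Named were the RFX genes, the main partners, tested genes within 500 kb of Rfx6, the 5 genes most like Rfx6 (mean of at least 20 counts), and per list up to 4 genes past the threshold with the largest changes (mean of at least 20 counts) plus up to 3 of the highest mean where fewer than 3 passed. Some genes that this rule names are not reported here. Others are marked as named after their values were seen. The procedures were tested on simulated data. Drawings used matplotlib 3.10.9.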

Additional observations from a re-analysis of the deposited data

Results flagged for a closer look

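Values of the RFX genes, their partners and the tested neighbours of Rfx6 were screened for a uterus far from the other 4 of its genotype (Dixon's ratio), which chance alone gives in about 1 of 20 groups, and 5 of 42 groups of a gene and a genotype held such a uterus. Rfx1 was 23.5 CPM in mutant replicate 5 and 30.1 to 32.7 CPM in the others. Ciita was 10.3 CPM in control replicate 5 and 5.38 to 6.76 CPM in the other controls. Gm49339 stood at 42.6 CPM in mutant replicate 5 against 4.41 to 9.31 CPM. Ros1 reached 3.42 CPM in mutant replicate 1 against 0.439 to 1.04 CPM. Fam162b was 0.0574 CPM in control replicate 5 and at most 0.0157 CPM in the other controls, a difference of a few counts.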

How the results depend on the processing

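The log2 fold changes of Rfx1, Rfx2 and Rfx5 kept their sign, and none of the 5 tested RFX genes passed, under all 15 alternatives. Leaving out single uteri turned the sign of Rfx3 (-0.11 to 0.03) and Rfx7 (-0.01 to 0.13). For Rfx6 the fitted value ranged from 8.88 to 10.63, and edgeR's own filter dropped the gene. Replicate numbers did not pair the samples (correlations of same-numbered uteri from -0.0529 to 0.128, with 1 mutant uterus closest to its own number). With the replicate block, 1704 genes passed, 845 of them higher. DESeq2 called 4103 genes (2131 higher, 1972 lower) and 51 list genes in place of 33. Leaving out 1 uterus gave 1204 to 2381 genes (594 to 1296 higher, 610 to 1085 lower), 13 to 36 list genes and 1 or 2 neighbours of Rfx6, and edgeR's own filter left 1 neighbour. The lowest counts came without controls 2, 3 or 4 (15, 13 and 18 list genes), and the cause was not tested.

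Over 73 genes, 1084 values were recomputed, and 923 kept sign and call, 130 lost the call, 5 gained it and 26 changed sign. With single uteri left out, the range was -0.07 to 0.10 for Nfya, -0.07 to 0.02 for Nfyb, -0.02 to 0.12 for Rfxap, -0.28 to 0.03 for Foxj1, -0.50 to 0.25 for Hydin, -0.41 to 0.00 for Sox17, -0.65 to 0.38 for Pnlip, -0.16 to 0.27 for Lgals4 and -0.02 to 0.53 for Csf1r. With the replicate block the values of Nfya, Hydin, Pnlip and Lgals4 were -0.01, -0.18, -0.35 and 0.08. Per kb of the longest transcript the mean RFX levels had the same order in controls, but other neighbours overlapped. Genes with a few counts, such as Rfx8 and Nkx6-1, allow only wide intervals at this depth.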
